A study of Arabidopsis thaliana with 2 samples.

Results

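The genes of the Polycomb repressive complexes were followed in early globular embryos of Arabidopsis thaliana, when the embryo is still a small round mass of few cells. The 10 genes were taken by their locus identifiers, CLF, SWN, MEA, FIE, MSI1, EMF2, VRN2, FIS2, LHP1 and EMF1, and all 10 were found among the 20612 loci of the table. Poly(A) RNA was sequenced from 1 wild-type library (Col-0) and 1 dcl1-5 library, and 30 embryos dissected by hand were pooled for either library, from plants grown in 16 hours of light and 8 hours of dark. The dcl1-5 line carries a mutation of DICER-LIKE1 (DCL1), which cuts plant microRNAs out of their precursors. The labels do not say how mutant embryos were recognised, and both pools went through 2 rounds of linear RNA amplification.

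Polycomb group proteins keep genes silent through cell divisions. Polycomb repressive complex 2 (PRC2) adds methyl groups to lysine 27 of histone H3, and each complex holds 1 catalytic subunit related to the fly protein Enhancer of zeste, or E(z), 1 subunit related to Suppressor of zeste 12, or Su(z)12, the Extra sex combs (Esc) homologue FIE, and the WD-repeat protein MSI1. In Arabidopsis the catalytic subunit is CLF, SWN or MEA and the Su(z)12 subunit is EMF2, VRN2 or FIS2, so that alternative complexes share FIE and MSI1. The complex that contains MEA and FIS2 acts in the female gametophyte and the endosperm, where both genes are known to be expressed from the maternal copy. LHP1 binds the methylated histone, and EMF1 is a plant protein that works with it in silencing of the type that Polycomb repressive complex 1 (PRC1) carries out in animals.

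Levels are RPM, a gene's reads scaled to the genome-matching reads of its library. These numbered 5611643 for wild type and 4513588 for dcl1-5, which makes 1 read worth 0.178 and 0.222 RPM and puts the floor of 3 reads at 0.535 and 0.665 RPM. Each genotype has 1 library, so differences have no replicate check and p-values are left out. Values in brackets are exact 95% intervals of counting error only. They treat reads as independent, which amplified reads are not, so they can be too narrow. DCL1 had 26 wild-type and 3 dcl1-5 reads, the direction of its label, though these are totals over the whole gene. The ratio of dcl1-5 to wild-type RPM had a median of 1.59 over the 10240 genes whose mean of both libraries was 5 RPM or more (the tested genes), so a member is set beside that shift as well as beside equality. In whole embryos, fewer cells of a type and less RNA per cell cannot be told apart.

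The shared core subunits had the most reads in wild type, whereas in dcl1-5 LHP1, with 196 reads, stood between MSI1 and FIE. The RPM of FIE and MSI1 differed in opposite directions with the authors' scaling. FIE (AT3G20740), the Esc homologue and a WD-repeat protein present in each form of the complex, had 308 wild-type and 173 dcl1-5 reads, or 54.9 RPM [48.9 to 61.4] and 38.3 RPM [32.8 to 44.5]. FIE was thus 1.43-fold lower in the dcl1-5 library [1.18 to 1.74], and its log2 ratio lay above that of 11.5% of the tested genes. MSI1 (AT5G58230), which also serves in the chromatin assembly factor CAF-1, had 294 and 358 reads, or 52.4 RPM [46.6 to 58.7] and 79.3 RPM [71.3 to 88.0]. MSI1 was 1.51-fold higher [1.29 to 1.77], close to the median of all tested genes, and its direction turned with TMM scaling (log2 ratio 0.59 with the authors' scaling and -0.07 with TMM). There were 1.05 FIE reads per MSI1 read in wild type and 0.483 in dcl1-5. That ratio of reads within a library does not depend on the scaling between libraries, and it was 0.462 times its wild-type value [0.359 to 0.592].

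**Figure D1:**
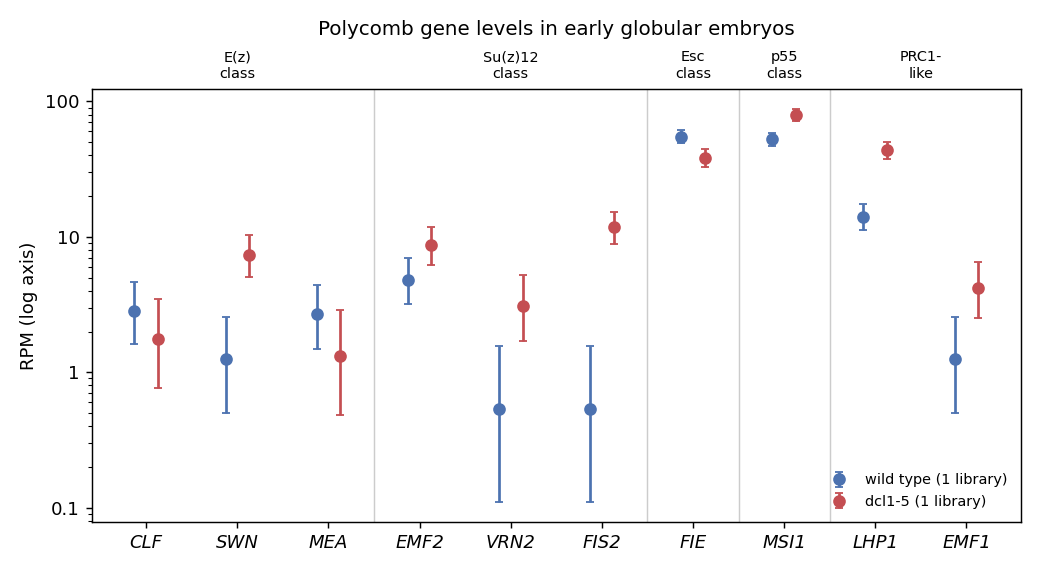
Level of each Polycomb gene (RPM, log axis) in the wild-type library (blue) and the dcl1-5 library (red), grouped by subunit class, where the Esc class is FIE and the p55 class is MSI1. Points are single libraries and bars are exact Poisson 95% intervals. FIE and MSI1 stand highest in wild type at 54.9 and 52.4 RPM.

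The catalytic subunits were each low, and SWN stood apart from the other two. SWN (AT4G02020), a histone methyltransferase that overlaps in function with CLF, had 7 wild-type and 33 dcl1-5 reads, or 1.25 RPM [0.502 to 2.57] and 7.31 RPM [5.03 to 10.3]. Its RPM was 5.86-fold higher in dcl1-5 [2.55 to 15.7]. CLF (AT2G23380), the main vegetative methyltransferase, had 16 and 8 reads, or 2.85 RPM [1.63 to 4.63] and 1.77 RPM [0.765 to 3.49]. Its ratio of 0.622 has an interval that includes equality [0.230 to 1.54]. That interval ends just below 1.59, the median ratio of the tested genes, a set that CLF was too low to enter. MEA (AT1G02580), the methyltransferase of the seed complex, had 15 and 6 reads, or 2.67 RPM [1.496 to 4.41] and 1.33 RPM [0.488 to 2.89]. The interval of its ratio of 0.497 includes equality too [0.158 to 1.36], and also ends below that median. MEA was likewise too low to be a tested gene. The summed E(z) class had 38 wild-type and 47 dcl1-5 reads, a ratio of 1.54 [0.981 to 2.42].

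The make-up of the E(z) class differed between the libraries. SWN took 18.4% of the class reads in wild type [7.74 to 34.3] and 70.2% in dcl1-5 [55.1 to 82.7]. The share of CLF was 42.1% [26.3 to 59.2] in wild type and 17.0% [7.65 to 30.8] in dcl1-5. That of MEA was 39.5% [24.0 to 56.6] and 12.8% [4.83 to 25.7]. The odds that a class read came from SWN were 10.10 times as high in dcl1-5 [3.38 to 34.1], and the CLF reads per SWN read were 2.29 in wild type and 0.242 in dcl1-5. These shares do not depend on how the libraries are scaled, and per kilobase of coding length SWN held 17.2% and 68.7%.

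All 3 subunits of the Su(z)12 class had more reads in dcl1-5. EMF2 (AT5G51230), which represses flowering through vegetative growth, had 27 wild-type and 39 dcl1-5 reads, or 4.81 RPM [3.17 to 7.00] and 8.64 RPM [6.14 to 11.8]. Its ratio was 1.80 [1.07 to 3.05], near the median of all tested genes. VRN2 (AT4G16845), which keeps the flowering repressor FLC silent after cold, had 3 and 14 reads, or 0.535 RPM [0.110 to 1.56] and 3.10 RPM [1.70 to 5.20], a ratio of 5.80 [1.62 to 31.5]. The interval of that ratio starts just above 1.59, the median ratio of the tested genes, a set that VRN2 was too low to enter. FIS2 (AT2G35670), the Su(z)12 subunit of the seed complex, had 3 and 53 reads, or 0.535 RPM [0.110 to 1.56] and 11.7 RPM [8.80 to 15.4], a ratio of 22.0 [7.12 to 110].

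FIS2 had the highest ratio of the 10 genes. Its log2 ratio of 3.05 lay above that of 98.8% of the tested genes, although it reached the mean of 5 RPM only through its dcl1-5 value. The summed class had 33 wild-type and 106 dcl1-5 reads, a ratio of 3.99 [2.68 to 6.10]. EMF2 took 81.8% of these reads in wild type [64.5 to 93.0] and 36.8% in dcl1-5 [27.6 to 46.7], whereas FIS2 took 9.09% [1.92 to 24.3] and 53 of the 106 reads in dcl1-5 [40.1% to 59.9%]. VRN2 had 9.09% [1.92 to 24.3] and 13.2% [7.41 to 21.2]. The odds of a class read being from FIS2 were 9.86 times as high in dcl1-5 [2.81 to 53.5], and for VRN2 the interval of that odds ratio, 0.385 to 8.79, includes equality. MEA, which works with FIS2 in the endosperm, had the ratio of 0.497 given above, so that there were 5.00 MEA reads per FIS2 read in wild type and 0.113 in dcl1-5.

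**Figure D2:**
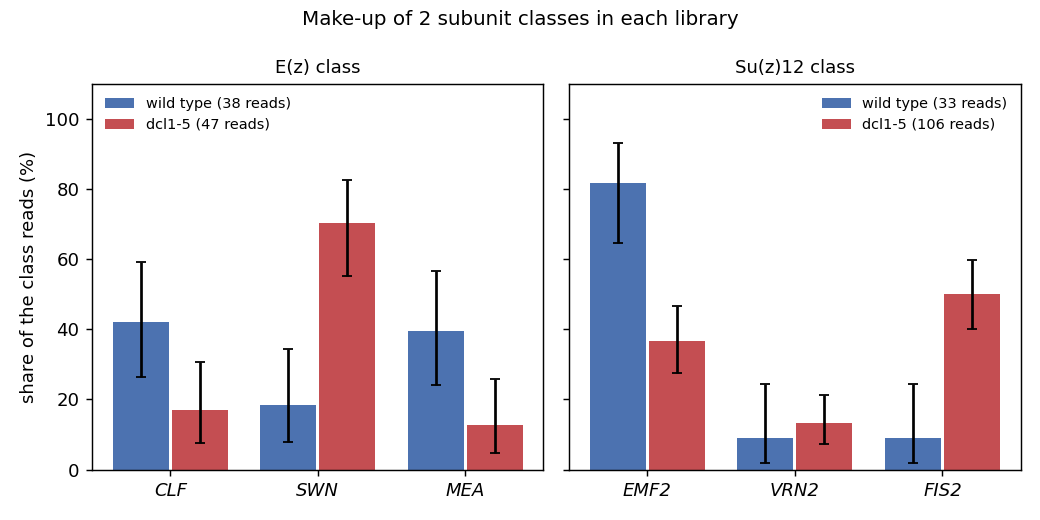
Share of the reads of each subunit class (%) taken by each gene, in wild type (blue) and dcl1-5 (red), with exact binomial 95% intervals. In the E(z) class SWN goes from 18.4% to 70.2% and in the Su(z)12 class FIS2 goes from 9.09% (3 of 33 reads) to 53 of 106 reads.

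Because FIS2 is known from the endosperm, the markers of tissues that surround the embryo were read beside it. Of 11 endosperm markers 8 had a row in the table, and 3 of those reached a mean of 5 RPM. Of the 3, 0 were at least 2-fold higher or lower, against 33.8% and 4.58% of all tested genes, and their median log2 ratio was 0.75. Of the 8, 5 had more RPM in dcl1-5. The summed level of the 8 was 48.8 RPM in wild type and 83.5 RPM in dcl1-5, a ratio of 1.71. The median of 1.59 is over single genes and is no like background for a sum. All listed loci together took 90.2% of the reads that matched the genome for wild type and 88.0% for dcl1-5. The endosperm sum was higher in dcl1-5 and that total was not. A total over all loci is no like background for a few genes either. The 3 tested markers made up most of either sum, and their own ratios, from 1.68 to 1.996, lay above the median of 1.59. Their log2 ratios lay above those of 53.0%, 55.4% and 63.8% of the tested genes, not far from the middle. The transcription factor AGL62, which delays endosperm cellularization, had 9 wild-type reads and 1 dcl1-5 read. AGL36, a maternally expressed endosperm gene, had 0 and 2 reads, which is under the floor of 3 reads in both libraries. FWA, another imprinted endosperm gene, had 13.5 and 27.03 RPM. Markers of the seed coat, the maternal layer around the endosperm, were at 83.8 and 266.8 RPM in sum, a ratio of 3.18, and of the 7 tested 4 were at least 2-fold higher, against 33.8% of all tested genes. Of those 7, TT1, GL2, TT12 and TT2 were under 5 RPM in wild type and passed the filter only through dcl1-5, TT1 and GL2 being among the 4. All 12 seed coat markers had reads in both libraries. The part of either tissue in the FIS2 value was not tested. The 8 early embryo markers were all present in both libraries, at 4777 and 3808 RPM in sum, or 561.5 and 701.9 RPM without the epidermal gene PDF1. They differed in direction, with 2 of the 8 at least 2-fold higher and 1 lower, against 33.8% and 4.58% of all tested genes. WOX8 and WOX9, homeobox genes of the basal embryo and suspensor, were 3.78-fold [2.36 to 6.27] and 3.36-fold [2.41 to 4.74] higher. DRN, a transcription factor of the apical embryo, had 150 wild-type and 9 dcl1-5 reads and was 13.4-fold lower [6.88 to 29.9].

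FIS2 shares a stretch of its locus with another gene on the opposite strand, which had 40 wild-type and 140 dcl1-5 reads. Reads were assigned by strand, per the series' design text, and the part of that neighbour in the FIS2 value was not tested. Such opposite-strand overlaps were also annotated for CLF, FIE, MSI1 and LHP1, making 5 of the 10 genes, and none overlapped a gene on the same strand.

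Of 3 known regulators of MEA and FIS2 imprinting, all tested, 0 were at least 2-fold higher or lower, against 33.8% and 4.58% of all tested genes. DME, the glycosylase that activates the maternal copies of both, had 47 wild-type and 46 dcl1-5 reads, or 8.38 and 10.2 RPM, a ratio of 1.22 [0.792 to 1.87]. MET1, the DNA methyltransferase that keeps FIS2 silent, had 36.2 and 29.0 RPM, a ratio of 0.802 [0.639 to 1.004]. RBR1, which works with MSI1 in repressing MET1, had 32.3 and 58.3 RPM and was 1.81-fold higher [1.49 to 2.20]. The log2 ratio of DME changed sign with scaling, from 0.26 to -0.18 with median-of-ratios and -0.35 with TMM.

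Both genes of PRC1-like function had more RPM in dcl1-5. LHP1 (AT5G17690), which binds trimethylated lysine 27 of histone H3, had 79 wild-type and 196 dcl1-5 reads, or 14.1 RPM [11.1 to 17.5] and 43.4 RPM [37.6 to 49.9]. It was 3.08-fold higher [2.36 to 4.06], with a log2 ratio above that of 84.0% of the tested genes. EMF1 (AT5G11530), needed to hold back flowering, had 7 and 19 reads, or 1.25 RPM [0.502 to 2.57] and 4.21 RPM [2.53 to 6.57]. It was 3.37-fold higher [1.36 to 9.50]. That interval includes 1.59, the median ratio of the tested genes, a set that EMF1 was too low to enter. With TMM scaling the log2 ratio of LHP1 was 0.92, short of 2-fold, from 1.56 with the authors' scaling, and that of EMF1 was 0.75, from 1.21.

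**Figure D3:**
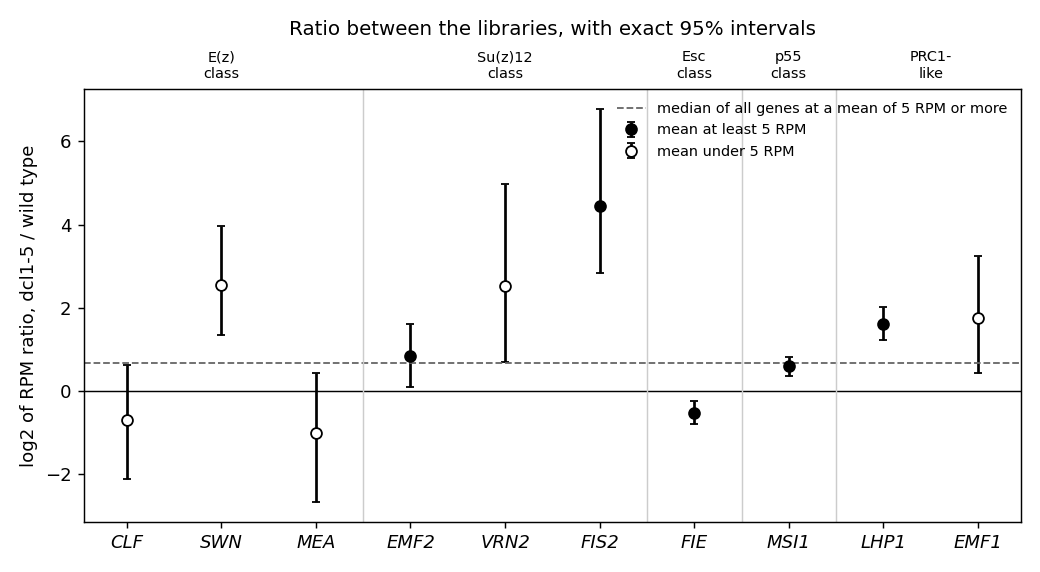
Ratio of dcl1-5 to wild-type RPM for each Polycomb gene on a log2 axis, with exact conditional 95% intervals. Filled points are genes averaging 5 RPM or more, the solid line is equality and the dashed line is the median of all tested genes. FIS2 lies highest at a ratio of 22.0, and the interval of FIE, at 0.698, lies wholly below equality.

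Counted by rule, 5 of the 10 genes reached a mean of 5 RPM (EMF2, FIS2, FIE, MSI1 and LHP1). On the log2(RPM + 1) scale 2 of these, FIS2 and LHP1, were 2-fold or more higher and 0 were 2-fold or more lower. Over all 10240 tested genes the shares were 33.8% higher and 4.58% lower, so 2 of 5 is near the background. By the exact interval, 4 of the 5 lay above equality and FIE below it, against 60.4% and 14.7% of the tested genes. FIS2 and EMF2 were under 5 RPM in wild type and passed the filter only through their dcl1-5 values, so these counts support nothing about the 10 genes. The median log2 ratio was 0.73 over the 5 genes and 0.63 over all tested genes. The split of all genes depended on the scaling, with 19.4% higher and 10.7% lower after median-of-ratios scaling and 15.0% and 14.5% after TMM, when the median of all genes was 0.18 and 0.00. With TMM, FIS2 alone was at least 2-fold higher and FIE was at least 2-fold lower, at a log2 ratio of -1.16.

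The other 5 genes, CLF, SWN, MEA, VRN2 and EMF1, had means between 1 and 5 RPM. In that range, chosen after the values were seen, SWN, VRN2 and EMF1 were at least 2-fold higher and 0 were lower, against 38.1% and 9.51% of 5048 loci. The intervals of the same 3 genes lay above equality and none of the 5 lay below it, against 41.2% and 10.2% of those loci. EMF1 fell short of 2-fold with median-of-ratios (log2 ratio 0.88) and TMM (0.75), and MEA was at least 2-fold lower with TMM (-1.09). Over all 10 genes without a filter, 5 were at least 2-fold higher, against 27.7% of all listed loci, and 0 were lower, against 5.60%. The interval of the ratio lay above equality for 7 of the 10 and below it for 1, against 41.7% and 10.6% of all listed loci. The listed loci include those averaging under 1 RPM, as none of the 10 genes did, so they are no like background for these counts.

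In the RefSeq annotation the 10 genes have coding lengths from 1110 nt (FIE) to 3291 nt (EMF1) and between 6 and 22 exons, and the 3 E(z) genes have 17 exons each. The level of one gene can be set against another only per length, so RPM was divided by the coding length, which assumes even coverage of the transcript. In wild type FIE stood first at 49.4 RPM per kilobase of coding sequence, followed by MSI1 at 41.1, LHP1 at 10.4 and EMF2 at 2.54. Below them came MEA at 1.29, CLF at 1.05, SWN at 0.485, VRN2 at 0.404, EMF1 at 0.379 and FIS2 at 0.236 RPM per kilobase. On coding length the first 4 steps of that order exceeded counting error, whereas no neighbours from MEA down to FIS2 were separated. The intervals of FIE over MSI1 and of EMF2 over MEA only just excluded equality. Reads are totals over whole genes, and EMF2 has a longer transcript than MEA (2599 against 2341 nt) despite a shorter coding sequence. The order by transcript length was not computed, so these steps are not shown to hold with another divisor. In dcl1-5 MSI1 stood first at 62.2 RPM per kilobase, then FIE at 34.5 and LHP1 at 32.0, which were not separated from each other. FIS2 came next at 5.18 RPM per kilobase, ahead of EMF2 at 4.56, again not separated. From SWN at 2.84 down to MEA at 0.642 RPM per kilobase no neighbours were separated, and 7 of the 9 steps in all were within counting error. FIE and MSI1 together held 79.3% of the reads of the 10 genes in wild type and 59.1% in dcl1-5.

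The ratio of reads between each pair of the 10 genes was compared between the libraries, a comparison added after the values were seen that does not depend on scaling. Of 45 pairs, which share genes and so are not independent, 27 had an exact 95% interval, not adjusted over the pairs, that excluded an equal ratio. The same share over pairs of other genes was not computed, so neither this count nor those below mark out the 10 genes. For single tested genes, the interval of the RPM ratio lay above equality in 60.4% and below it in 14.7%. FIS2 gained reads relative to 7 of the other 9 genes and lost to 0. MEA and FIE each lost reads relative to 7 genes and gained on 0, and CLF lost to 5 and gained on 0. SWN gained on 5, and MSI1 gained on 2 and lost to 4.

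Other genes that act with these complexes lay near the background as lists. That background is 33.8% of all tested genes at least 2-fold higher and 4.58% lower, with a median log2 ratio of 0.63. Of 11 genes of PRC2 relatives and partners 9 were tested, of which 3 were at least 2-fold higher and 0 lower, with a median log2 ratio of 0.62. VRN5 (AT3G24440), a plant homeodomain protein that joins VRN2 in cold-induced silencing, went from 4.46 to 17.1 RPM, 3.83-fold higher [2.41 to 6.28]. Its relative VEL2 was 3.55-fold higher [1.89 to 7.07]. The MSI1 paralogues MSI2 and MSI3 were 2.24-fold [1.86 to 2.71] and 1.70-fold [1.29 to 2.25] higher. Of 20 PRC1-like and recruiting genes 15 were tested, with 4 at least 2-fold higher, 0 lower and a median of 0.78. TRB3 and TRB2, telomere-repeat-binding proteins that recruit PRC2, were 5.72-fold [2.85 to 12.7] and 2.76-fold [1.92 to 4.02] higher. VAL2, a B3-domain repressor of seed genes, was 4.48-fold higher [2.49 to 8.54], and the deubiquitinase UBP12 was 2.20-fold higher [1.72 to 2.81].

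Genes that oppose Polycomb silencing gave a similar count. Of 17 trithorax-group and lysine 27 demethylase genes 10 were tested, with 4 at least 2-fold higher, 0 lower and a median log2 ratio of 0.65. Of all tested genes 33.8% were higher and 4.58% lower, so this count is near the background. JMJ30 (AT3G20810), a demethylase that is also under clock control, went from 5.88 to 34.6 RPM, 5.88-fold higher [4.02 to 8.84]. The demethylase ELF6 was 4.10-fold higher [2.64 to 6.56]. The chromatin remodeller SYD and the lysine 36 methyltransferase SDG8 were 3.32-fold [2.53 to 4.41] and 2.91-fold [1.97 to 4.38] higher.

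Genes that PRC2 is known to silence were read last. Of 23 well-known targets, 21 had a row in the table and 12 were tested, and 8 of the 12 (66.7%) were at least 2-fold higher and 0 lower, against 33.8% and 4.58% of all tested genes. The median log2 ratio of the 12 was 1.40, and that of all 21 without a filter was 0.94. The list was chosen with earlier results of these data known, so these values support nothing about PRC2 targets as a class. Without a filter the 10 Polycomb genes had a median of 0.97 and all listed loci 0.42. The listed loci include those averaging under 1 RPM, as none of the 10 genes did. The median was 0.65 over loci at 1 to under 5 RPM and 0.63 over the tested genes. SHP2 (AT2G42830), a MADS-box gene of carpels and ovules, went from 3.56 to 26.6 RPM, 7.46-fold higher [4.62 to 12.7]. The flowering signal FT went from 4.28 to 30.1 RPM, 7.05-fold [4.54 to 11.4]. Both were under 5 RPM in wild type and so passed the filter through dcl1-5, as did VRN5, VEL2, TRB3, VAL2 and ELF6 above. AP3, a floral organ identity gene, was 4.48-fold higher [3.67 to 5.50], and AGL15, a MADS-box gene of embryos, was 3.20-fold higher [2.33 to 4.43]. Several of these genes are also expressed in ovules and seed coats, whose markers had the ratio of 3.18 given above, and the part of those tissues was not tested. With TMM scaling 3 of the 12 were at least 2-fold higher, against 15.0% of all tested genes with that scaling. Over all 21 targets without a filter 10 were at least 2-fold higher and 1 lower, against 27.7% and 5.60% of all listed loci. The further genes were AG, with 4 wild-type and 35 dcl1-5 reads and a ratio of 10.9 [3.89 to 42.1], LEC2, with 8 and 19 reads and a ratio of 2.95 [1.23 to 7.80], and WUS, the lower one, with 10 and 1 reads.

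**Figure D4:**
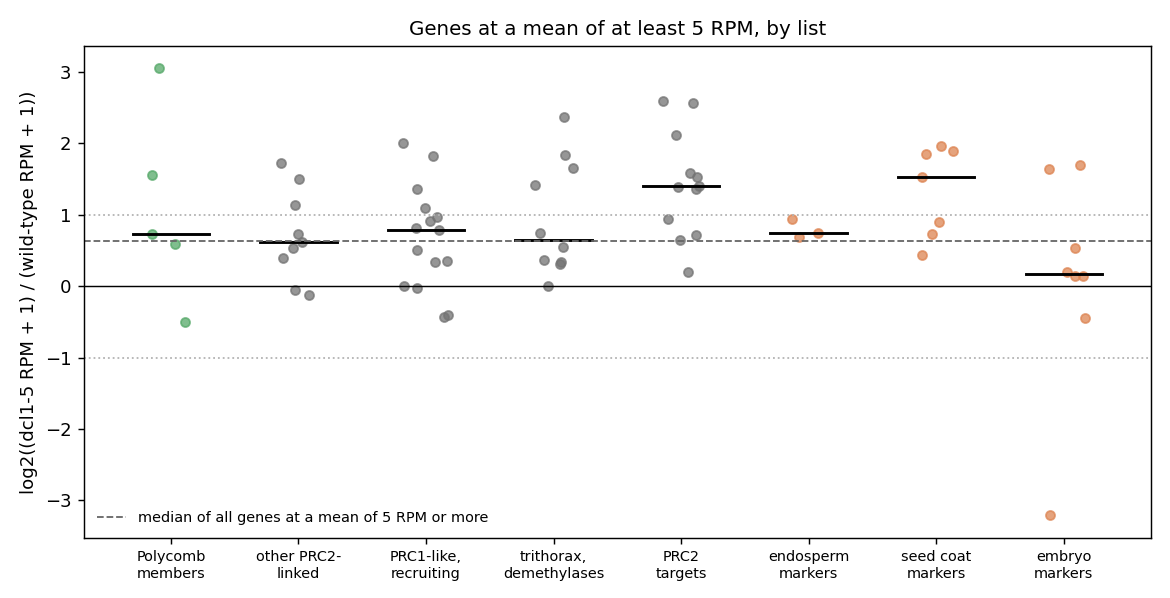
Log2 ratio on the log2(RPM + 1) scale for every tested gene, by list. Green points are Polycomb genes, grey points are related genes and orange points are tissue markers, thick bars are list medians, dotted lines mark 2-fold and the dashed line is the median of all tested genes at 0.63. Among these tested genes the PRC2 targets and the seed coat markers have the highest medians, at 1.40 and 1.53. Some of them passed the filter only through dcl1-5. Without the filter their medians are 0.94 and 1.76, beside 0.97 for the Polycomb genes and 0.42 for all listed loci. The listed loci include those averaging under 1 RPM, unlike the Polycomb genes, and loci at 1 to under 5 RPM have a median of 0.65. The lists were chosen with earlier results of these data known.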

How the data were processed

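Per the design text of the series, the authors used Bowtie to align reads to TAIR9 with at most 2 mismatches within a 25 nt seed; no Bowtie version is given in the sources used here. They kept unique matches, which drops reads shared by near-identical genes, and counted the antisense strand of each gene. The file headers give the deposited unit as RPM, relative to genome-matching reads. All values (100%) were whole multiples of 1 read within 0.01 reads, so reads were recovered. The authors' ratio column was not used.

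Log2 ratios were taken of dcl1-5 over wild type after adding 1 RPM to both, so low genes show smaller changes, and genes averaging 5 RPM or more over both libraries were counted at 2-fold. RPM has exact Poisson 95% intervals, ratios exact conditional (Clopper-Pearson) and shares exact binomial ones. No p-value was computed. Coding length (the longest coding sequence) and overlaps came from the RefSeq TAIR10.1 annotation, another build than TAIR9, so no coordinates or sequences are printed; it held 20509 of the 20612 loci and all 113 listed genes, 4 of them without the name used here. The members and lists were chosen with earlier results of these data known. Besides the members, up to 4 tested genes of each list are named, those with the log2 ratios farthest from 0; AGL62, AGL36, FWA, PDF1, DRN, WOX8, WOX9, the seed coat genes, AG, LEC2, WUS and the genes in the last part were named after their values were seen. Scaling alternatives were equal totals, median-of-ratios (from genes averaging 20 RPM or more) and TMM (edgeR 4.0.16, R 4.3.3). Python 3.11.15 with numpy 2.4.6, pandas 2.3.3 and scipy 1.17.1 was used, and calculations were tested on simulated data.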

Additional observations from a re-analysis of the deposited data

How the results depend on the processing

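The count of 2 members at least 2-fold higher was 5 with no filter, 1 at a mean of at least 20 RPM, 1 with TMM, 1 at 4-fold and 4 when the exact interval had to exclude equality. The shares beside these were 27.7% of all listed loci with no filter, and 15.0% with TMM and 60.4% by the interval of tested genes. The listed loci include those under 1 RPM, unlike the members. No share was computed at 20 RPM or at 4-fold. The count of 0 lower was 1 with TMM and 1 by the interval, against 14.5% and 14.7% of all tested genes. In the range of 1 to under 5 RPM, added after seeing the data, 3 were higher and 0 lower, against 38.1% and 9.51% of loci there. The direction of MSI1 turned with TMM, at a log2 ratio of -0.073. With median-of-ratios and TMM the log2 ratio of EMF1 was 0.88 and 0.75, and with TMM that of MEA was -1.09. For the 9 members other than MSI1 the direction held under every pseudocount and scaling run. No filter gave 1 lower gene for the PRC1-like list, 1 for the trithorax list and 1 for the targets, against 5.6% of all listed loci. At a mean of 20 RPM the higher counts were 1 for PRC2 partners, 1 for PRC1-like genes, 2 for the trithorax list and 5 for targets. With median-of-ratios they were 2 for PRC1-like genes and 5 for targets, and with TMM 1 for PRC2 partners, 2 for PRC1-like genes (2 lower) and 3 for targets. Of all tested genes 19.4% were higher with median-of-ratios, and 15.0% were higher and 14.5% lower with TMM. The filters change the number of genes tested, to 20, 17 and 21 for the PRC1-like, trithorax and target lists with no filter. Without the imprinted gene of the class, CLF held 69.6% of E(z) reads in wild type, and EMF2 held 73.6% and VRN2 26.4% of Su(z)12 reads in dcl1-5. Per kilobase, the class shares stayed within their intervals. Leaving out a replicate was not possible with 1 library per genotype. Depth limits CLF, MEA, VRN2 and EMF1, with 3 to 19 reads in each library, and also SWN and FIS2, with 7 and 3 wild-type reads.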

Other observations

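Genes next to the Polycomb members in chromatin biology were few in reads. FAS1 and FAS2, the partners of MSI1 in the chromatin assembly factor CAF-1, had 10 and 8 wild-type reads and 13 and 11 dcl1-5 reads, with ratios of 1.62 [0.655 to 4.12] and 1.71 [0.626 to 4.90] that include equality. The enzymes that add a single methyl group to lysine 27 of histone H3 differed in direction. ATXR6 had 36 wild-type and 12 dcl1-5 reads and was 2.41-fold lower [1.23 to 5.09]. ATXR5 had 11 and 25 reads, 2.83-fold higher [1.34 to 6.36]. All 4 genes were under a mean of 5 RPM.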
